A study of Sus scrofa with 22 samples.

Results

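Long- and medium-chain fatty acids are burned in mitochondria by beta-oxidation, a repeated cycle in which an acyl-CoA dehydrogenase, a hydratase, a second dehydrogenase and a thiolase shorten the acyl chain and release acetyl-CoA. Skeletal and heart muscle rely on this pathway between meals and during sustained work, and newborn mammals meet milk fat as a major fuel. The genes described here are ACADVL (very long-chain acyl-CoA dehydrogenase), ACADM (medium-chain acyl-CoA dehydrogenase), HADHA (the alpha subunit of the mitochondrial trifunctional protein, which carries the hydratase and the 3-hydroxyacyl-CoA dehydrogenase for long chains), ECI1 (an isomerase needed for unsaturated chains) and CRAT (carnitine acetyltransferase, which moves acetyl groups between CoA and carnitine). They were taken by symbol: every probe set that the array annotation gives to 1 of these symbols and to no other was used. That gave 6 probe sets for the 5 genes, 2 of them for ACADVL, of 23999 probe sets and 6765 named genes on the porcine array after control probe sets were left out.

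The samples were 22 offspring of German Landrace gilts fed an adequate protein diet in gestation, a feature that all groups share. They fall into 4 ages: 94 dpc (days after conception, 6 animals), 1 dpn (days after birth, 6 animals), 28 dpn (6 animals) and 188 dpn (4 animals). Animals were drawn from 3 gilts per stage. Which gilt bore which animal is not stated in the labels, so any litter mates count as separate samples in every p-value below. Every sample label names liver, whereas the series title names muscle.

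The muscle markers were bright on every array. All 14 measured of 18 listed muscle genes lay above background on each array, and their summed signal was 337204 to 429118 at 94 dpc, 424504 to 574345 at 1 dpn, 805774 to 909879 at 28 dpn and 777229 to 869139 at 188 dpn. The 16 measured of 18 listed hepatocyte genes summed to 8021 to 58828, 2639 to 12267, 2729.9 to 14116 and 2304 to 7458 at the same ages. Of these, the fetal plasma protein AHSG ran from 172.4 to 21645 and SERPINA1 from 172.6 to 13815 at 94 dpc. Both lay above background on all 6 arrays of that age. After birth AHSG reached at most 2610.3 and SERPINA1 at most 566. Albumin (ALB) did not follow them: it reached 861.6 at 94 dpc and 929.4, 3172.8 and 2161.4 at the later ages. APOA2, CPS1 and the cytochrome CYP2E1 did not exceed 421.3, 281.9 and 209.9 on any array. The samples are described as muscle because the muscle sum exceeded the hepatocyte sum on every array, and hepatocyte transcripts were present in unequal amounts between arrays. Background was a signal of 69.7, and all 6 probe sets lay above it on every array. Summed markers of endothelium (9 of 10 listed genes measured) were 12611 to 15445, 4253 to 5981, 7623 to 11389 and 3349 to 4321 over the 4 ages, those of fibroblasts (7 of 9) 41681 to 60042, 16152 to 26932, 16055 to 31448 and 12013 to 18494, and those of adipocytes (8 of 10) 8498 to 11746, 14322 to 20864, 23044 to 38264 and 35070.1 to 38513, with the adipocyte-defining ADIPOQ at no more than 538. Macrophage genes (7 of 10) summed to 2810.0 to 3531, 1450 to 3446, 2830.0 to 10615 and 1471 to 5265, erythroid genes (5 of 11) to no more than 2677 and heart genes (5 of 10) to no more than 863 on any array. Pancreas genes (6 of 11) summed to 12313 on replicate 3 at 1 dpn and to no more than 1515 on the other 21 arrays. The part of these other cells, and of the muscle markers themselves, in the changes below was not tested, and in whole tissue fewer cells of a type and less RNA per cell cannot be told apart. RNA integrity differed at 1 dpn: the signal of the 3' over the 5' GAPDH control probe set was 0.801 to 0.907 at 94 dpc, 0.872 to 7.16 at 1 dpn, 0.795 to 1.37 at 28 dpn and 0.809 to 0.876 at 188 dpn, and only replicates 1 and 6 of the 6 arrays at 1 dpn had a ratio under 3.

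Over the 4 ages the 5 genes followed 2 courses. ACADVL, HADHA and ECI1 were high at 1 dpn and 28 dpn and were back near their 94 dpc signal at 188 dpn, whereas ACADM and CRAT stayed high at 188 dpn. All 6 probe sets passed limma's F test over the 4 ages (adjusted p 1.1e-10 for CRAT to 2.4e-05 for the dimmer ACADVL probe set), as did 51.4% of all probe sets. A probe set is counted as called below at an adjusted p under 0.05, with Benjamini-Hochberg adjustment over all 23999 probe sets. Folds were taken from differences of mean log2(signal + 16), and signals are array units scaled to the same trimmed mean. The mean array median differed by log2 -0.26 at 1 dpn over 94 dpc, 0.2 at 28 dpn over 1 dpn, -0.2 at 188 dpn over 28 dpn and -0.27 at 188 dpn over 94 dpc, and a change relative to that median is the printed change minus this difference.

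**Figure D1:**
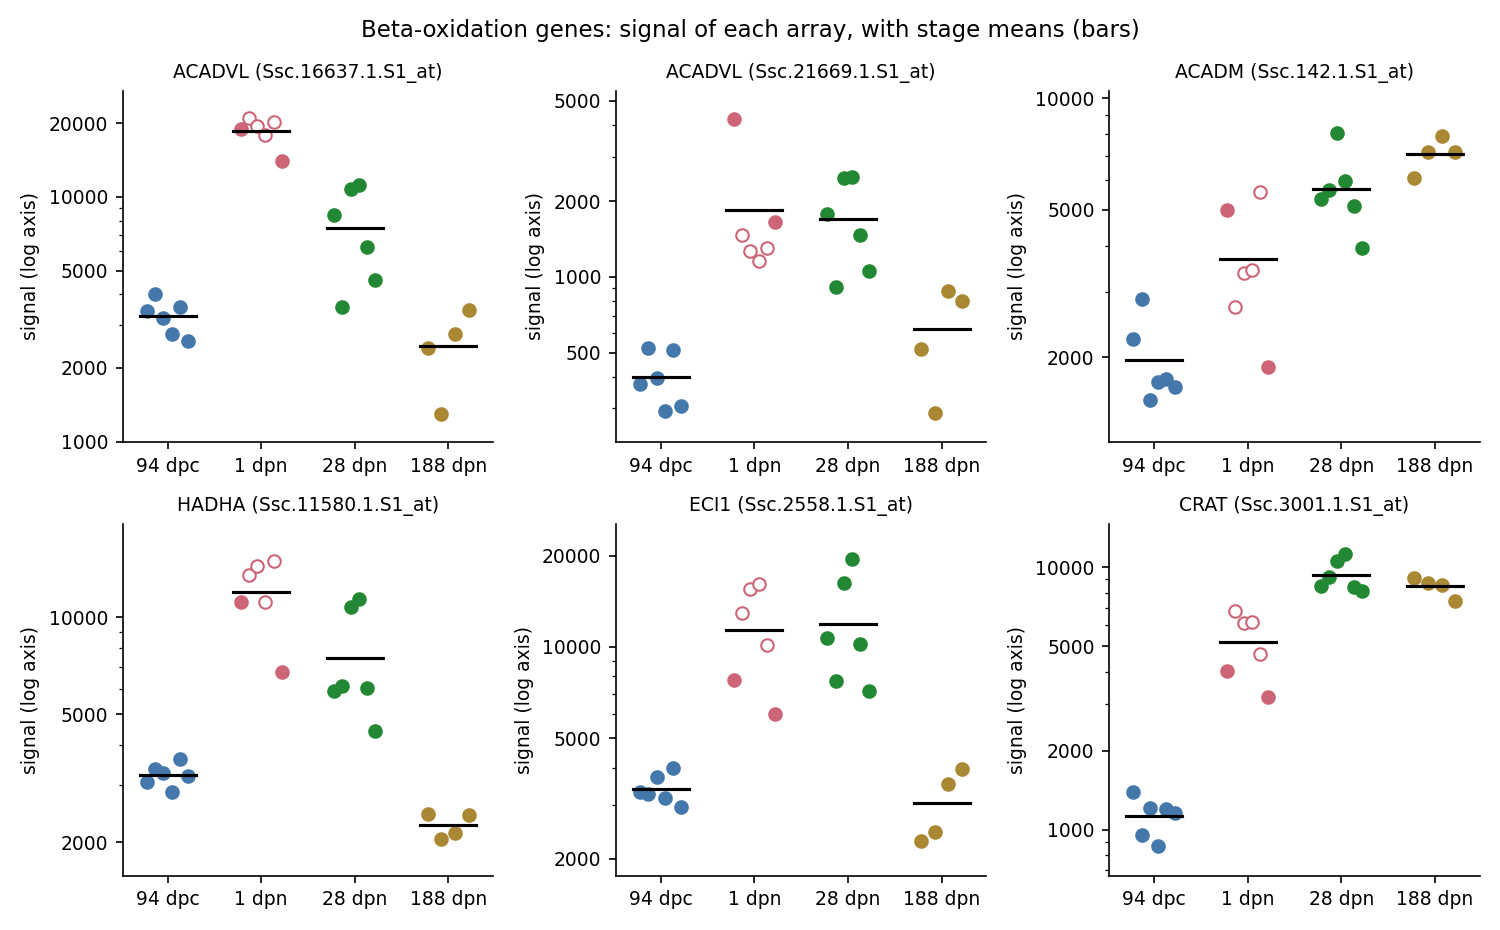
Signal of the 6 probe sets on each array (y axis, log scale, arbitrary array units) against age (x axis), with the stage mean as a bar; open points are the 1 dpn arrays with a GAPDH 3'/5' ratio of 3 or more. No 188 dpn array lies above the highest 94 dpc array for the brighter ACADVL probe set, HADHA or ECI1, and all 4 lie above it for ACADM and CRAT.

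ACADVL catalyses the opening dehydrogenation of very long and long acyl chains at the inner mitochondrial membrane. Its brighter probe set (Ssc.16637.1.S1_at) had a lowest, median and highest signal of 2581, 3313 and 3994 at 94 dpc, of 14025, 19249 and 20933 at 1 dpn, and of 3532, 7321 and 11223 at 28 dpn. The 4 animals at 188 dpn had 2403, 1293, 2746 and 3437. No animal at 1 dpn overlapped any animal of another age, while the 188 dpn animals lay within or below the fetal range. ACADVL rose 5.72-fold at 1 dpn over 94 dpc (log2 change 2.52, SE 0.26, adjusted p = 3.2e-07). It fell at 28 dpn to 0.371 of the 1 dpn level (log2 change -1.43, SE 0.26, adjusted p = 0.00045) and at 188 dpn to 0.342 of the 28 dpn level (log2 change -1.55, SE 0.3, adjusted p = 0.0015). Between 188 dpn and 94 dpc the log2 change was -0.46, with a 95% interval of -1.08 to 0.15 (adjusted p = 0.25), and it was 0.03 by the mean of both probe sets.

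The dimmer ACADVL probe set (Ssc.21669.1.S1_at) had a lowest, median and highest signal of 293, 386 and 521.5 at 94 dpc, 1151, 1383 and 4231 at 1 dpn, and 907, 1619 and 2483 at 28 dpn, with 516, 286, 880.2 and 801 at 188 dpn. It was called with the brighter one at 1 dpn over 94 dpc (log2 change 2.02, SE 0.33, adjusted p = 5.5e-05) and at 188 dpn over 28 dpn (log2 change -1.44, SE 0.37, adjusted p = 0.012; -1.12 and 0.069 without replicate 2 at 188 dpn). The probe sets disagreed between 28 dpn and 1 dpn, where the dimmer one changed by log2 -0.06 (95% interval -0.74 to 0.62, adjusted p = 0.93). At 188 dpn over 94 dpc they differed in sign, neither being called, with log2 0.52 for the dimmer one (95% interval -0.23 to 1.28, adjusted p = 0.29). The log2 gap between the brighter and the dimmer probe set within an array was 2.76 to 3.16 at 94 dpc, 1.94 to 2.24 at 28 dpn and 1.62 to 2.18 at 188 dpn. At 1 dpn it was 3.82 to 3.95 on the 4 arrays with a GAPDH 3'/5' ratio of 3 or more, against 2.16 and 3.07 on replicates 1 and 6. With only those 2 arrays at 1 dpn, the dimmer probe set changed by log2 2.71 at 1 dpn over 94 dpc (adjusted p = 0.00027) and by -0.74 at 28 dpn over 1 dpn (adjusted p = 0.3), and the brighter one by -1.25 in that second step (adjusted p = 0.041). Which stretch of the transcript each probe set reads was not used here.

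ACADM opens the cycle for medium chains, and its loss in humans is a common inherited defect of fatty acid oxidation. Its probe set (Ssc.142.1.S1_at) had a lowest, median and highest signal of 1533, 1729 and 2877 at 94 dpc, 1884, 3413 and 5600.4 at 1 dpn, and 3945, 5512.5 and 8075 at 28 dpn, and the 188 dpn animals had 6103, 7140.3, 7900.2 and 7165. The order of the means followed age, but neighbouring ages overlapped, and only 188 dpn and 28 dpn were clear of all 94 dpc animals. ACADM rose 1.79-fold at 1 dpn over 94 dpc (log2 change 0.84, SE 0.23, adjusted p = 0.0075) and 1.61-fold at 28 dpn over 1 dpn (log2 change 0.69, SE 0.23, adjusted p = 0.037). The last step was not called (log2 change 0.34, 95% interval -0.2 to 0.88, adjusted p = 0.47), and over the whole span ACADM rose 3.66-fold (log2 change 1.87, SE 0.26, adjusted p = 5.3e-06). With replicates 1 and 6 alone at 1 dpn, its early steps were log2 0.68 (adjusted p = 0.14) and 0.85 (adjusted p = 0.079). The second step also lost its call with each array centred on its median (0.49, adjusted p = 0.12).

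HADHA works in a complex with HADHB, the beta subunit that carries the long-chain thiolase. The HADHA probe set (Ssc.11580.1.S1_at) had a lowest, median and highest signal of 2868, 3248 and 3633 at 94 dpc, 6743, 12357 and 14981 at 1 dpn, and 4439, 6079 and 11424 at 28 dpn. The 4 animals at 188 dpn had 2440.0, 2045, 2133 and 2437, all below the lowest fetal animal. HADHA rose 3.58-fold at 1 dpn over 94 dpc (log2 change 1.84, SE 0.22, adjusted p = 1.7e-06). It then fell to 0.604 of the 1 dpn level at 28 dpn (log2 change -0.73, SE 0.22, adjusted p = 0.02), with overlapping animals, and to 0.323 of the 28 dpn level at 188 dpn (log2 change -1.63, SE 0.25, adjusted p = 0.00019). Although the animals did not overlap between 188 dpn and 94 dpc, that change was not called (log2 -0.52, 95% interval -1.03 to 0, adjusted p = 0.11). It was called after quantile normalization (log2 -0.69, adjusted p = 0.028), with array weights (adjusted p = 0.046) and in a fit on those ages alone (adjusted p = 0.0065). The fall between 1 dpn and 28 dpn was log2 -0.31 with replicates 1 and 6 alone at 1 dpn (adjusted p = 0.54), and -0.73 with an adjusted p of 0.1 in a fit on those ages alone.

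ECI1 shifts the double bond of unsaturated chains so that the hydratase can act on them. Its probe set (Ssc.2558.1.S1_at) had a lowest, median and highest signal of 2970.5, 3306 and 3978 at 94 dpc, 6019.6, 11513 and 16079 at 1 dpn, and 7174, 10483 and 19573 at 28 dpn, and the 188 dpn animals had 2288, 2456, 3545 and 3952. The 1 dpn and 28 dpn animals shared 1 range that lay wholly above the 94 dpc and 188 dpn animals. ECI1 rose 3.15-fold at 1 dpn over 94 dpc (log2 change 1.66, SE 0.26, adjusted p = 4.5e-05), a value that was log2 1.01 (adjusted p = 0.029) with replicates 1 and 6 alone at 1 dpn. It changed by log2 0.06 at 28 dpn over 1 dpn (95% interval -0.49 to 0.6, adjusted p = 0.91; -0.14 with each array centred on its median) and fell to 0.268 of the 28 dpn level at 188 dpn (log2 change -1.9, SE 0.29, adjusted p = 0.00023). At 188 dpn over 94 dpc the log2 change was -0.19 (95% interval -0.8 to 0.42, adjusted p = 0.67), and 0.08 with each array centred.

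CRAT is not part of the cycle itself but acts on its product, acetyl-CoA. Its probe set (Ssc.3001.1.S1_at) had a lowest, median and highest signal of 869, 1179 and 1386 at 94 dpc, 3208, 5406 and 6811.5 at 1 dpn, and 8122, 8829.8 and 11225 at 28 dpn, and the 188 dpn animals had 9104, 8691, 8567 and 7409. Each of the first 3 ages lay wholly above the one before, and the 188 dpn animals overlapped those of 28 dpn. CRAT rose 4.43-fold at 1 dpn over 94 dpc (log2 change 2.15, SE 0.18, adjusted p = 2.9e-08) and 1.85-fold at 28 dpn over 1 dpn (log2 change 0.89, SE 0.18, adjusted p = 0.0011). The change at 188 dpn over 28 dpn was log2 -0.14 (95% interval -0.56 to 0.29, adjusted p = 0.75), and 0.07 with each array centred. Over the whole span CRAT rose 7.46-fold (log2 change 2.9, SE 0.2, adjusted p = 5.2e-10), above 99.4% of all probe sets by its log2 change.

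**Figure D2:**
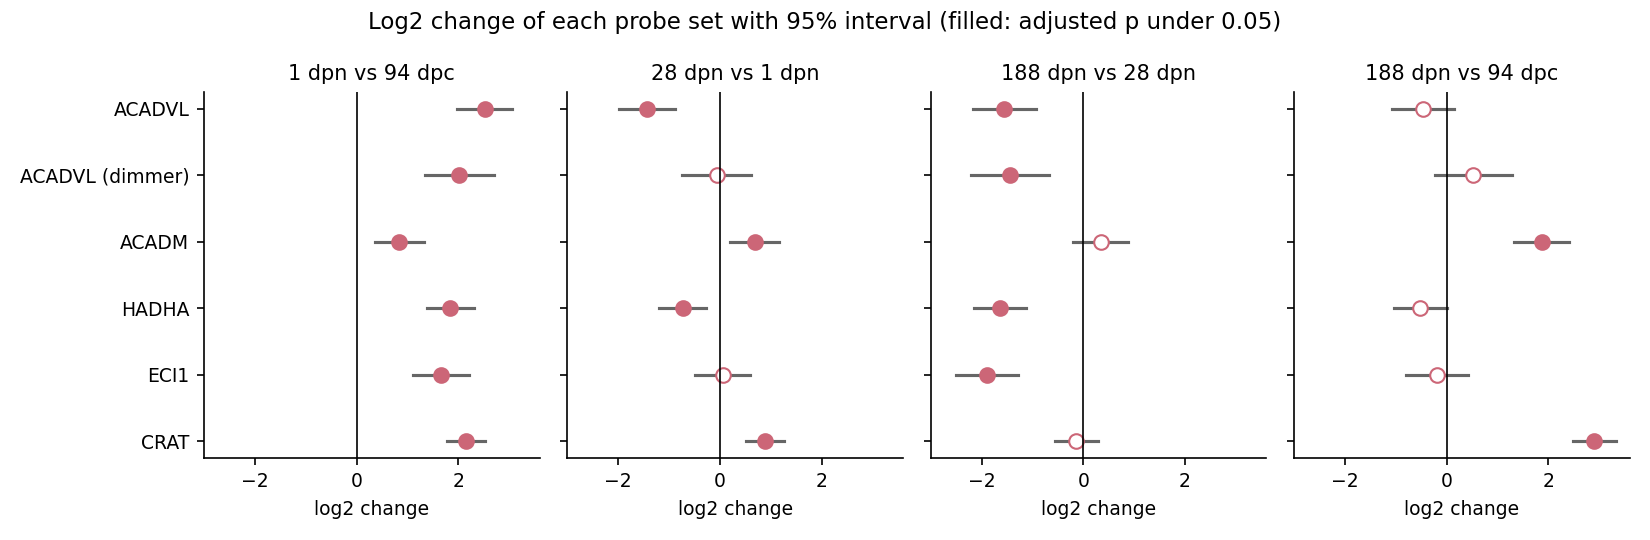
Log2 change (x axis) of each of the 6 probe sets in the 4 comparisons, with its 95% interval as a line; filled points have an adjusted p under 0.05. All 6 points are filled and positive at 1 dpn over 94 dpc, whereas at 188 dpn over 94 dpc only ACADM (1.87) and CRAT (2.9) are filled.

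Read as a group, all 5 genes (6 of 6 probe sets) were called higher at 1 dpn than at 94 dpc, with a median log2 change over genes of 1.84, against -0.05 over all named genes. In that comparison 10.9% of all probe sets and 17.3% of named genes were called higher, and 21.7% and 23.8% lower. With replicates 1 and 6 alone at 1 dpn, 5 of the 6 probe sets were called. At 28 dpn over 1 dpn ACADM and CRAT were called higher, ACADVL (brighter probe set) and HADHA lower, and ECI1 neither way, at a median of 0.06 against 0.04 over all named genes. Of all probe sets 13.9% were called higher and 8.39% lower in that step, and of named genes 15.1% and 12.9%. The 4 called probe sets became 2, the brighter ACADVL one and CRAT, with replicates 1 and 6 alone at 1 dpn.

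At 188 dpn over 28 dpn none of the 5 genes was called higher by limma at an adjusted p under 0.05 and 3 were called lower (4 of 6 probe sets, both of ACADVL), at a median log2 change of -1.55 against -0.1 over all named genes. At an unadjusted p under 0.05 the counts were also 0 higher and 3 lower. The array as a whole had 3.65% of probe sets higher and 8.2% lower, and 5.03% and 11% of named genes. At 188 dpn over 94 dpc 2 of the 5 genes were called higher and none lower, at a median of -0.19 against -0.08. At an unadjusted p under 0.05 limma gave 2 higher and 1 lower, HADHA. There 13.6% of probe sets were called higher and 22.5% lower, and 18.4% and 27% of named genes. The comparisons that meet at 1 age share its arrays.

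The spread between animals differed by age and gene. At 28 dpn the highest animal exceeded the lowest 3.18-fold for the brighter ACADVL probe set, 2.74-fold for the dimmer one, 2.57-fold for HADHA and 2.73-fold for ECI1, but 1.38-fold for CRAT and 2.05-fold for ACADM. Replicates 3 and 4 at 28 dpn gave the 2 highest values of that age for all 6 probe sets. Their brighter ACADVL signals were 10814 and 11223, against 3532 to 8421 in the other 4 animals, and their HADHA signals were 10758 and 11424, against 4439 to 6115. At 1 dpn, replicate 6 was the lowest animal for 5 of the 6 probe sets, with the dimmer ACADVL probe set as the exception. At 188 dpn the range was 1.19-fold for HADHA, 1.23-fold for CRAT and 1.29-fold for ACADM, against 2.66-fold for the brighter ACADVL probe set, where replicate 2 was lowest at 1293.

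Across the 22 arrays the log2 signals split into the same 2 courses. Pearson's r was 0.95 between ACADVL and HADHA, 0.91 between HADHA and ECI1 and 0.84 between ACADVL and ECI1, and it was 0.85 between ACADM and CRAT. Between the courses it was 0.05 for ACADVL and ACADM, 0.11 for HADHA and ACADM, 0.27 for ACADVL and CRAT and 0.33 for HADHA and CRAT, with ECI1 and CRAT at 0.52. These values describe 22 arrays that fall into 4 ages, so they mostly restate the stage means.

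Ratios within an array, centred on their 94 dpc mean, show how unequally the genes changed. The log2 ratio of ACADM over ACADVL (brighter probe set) averaged 0 ± 0.24 at 94 dpc, -1.67 ± 0.46 at 1 dpn, 0.44 ± 0.54 at 28 dpn and 2.33 ± 0.6 at 188 dpn (SD, n = 6, 6, 6 and 4). The 188 dpn animals, at 1.8 to 3.19, lay above every earlier animal, the next highest being 1.42 at 28 dpn. CRAT over ACADVL averaged -0.37 at 1 dpn, 1.95 at 28 dpn and 3.36 at 188 dpn, with no overlap between the last ages and 94 dpc. By contrast HADHA over ACADVL averaged 0.03 at 28 dpn and -0.05 at 188 dpn, and its 188 dpn range of -0.5 to 0.65 held the fetal range of -0.25 to 0.3, while at 1 dpn it ran from -1.06 to -0.44. All these ratios use the brighter ACADVL probe set. At 188 dpn over 94 dpc the dimmer one changed by log2 0.52, the brighter one by -0.46 and HADHA by -0.52. With the dimmer one, HADHA over ACADVL would therefore be lower at 188 dpn than at 94 dpc. These ratios are descriptions, and no test was made of the difference between genes.

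The subunits of the trifunctional protein did not keep a constant transcript ratio. The log2 ratio of HADHA over HADHB averaged -0.22 ± 0.46 at 1 dpn, -0.72 ± 0.3 at 28 dpn and -1.29 ± 0.12 at 188 dpn on the scale where 94 dpc is 0 ± 0.18. All 188 dpn animals (-1.46 to -1.19) and all 28 dpn animals (-1.17 to -0.39) lay below all 94 dpc animals (-0.23 to 0.2). HADHB itself averaged 4687.5 at 188 dpn, against 2744 at 94 dpc, without overlap, yet was not called (log2 change 0.77). Apart from fits that left out 1 array, it was called in 5 alternatives: after centring (adjusted p = 0.012), with trended and robust variances (0.039), with array weights (0.013), in a fit on those ages alone (4e-04) and among probe sets brighter than the median (0.035). It stayed uncalled in 19 of 22 fits that left out 1 array, where the lowest adjusted p was 0.03. The other HADHB probe sets, with mean signals of 6947 and 5085, changed by log2 1.45 and 0.86 at 1 dpn over 94 dpc, less than HADHA at 1.84, whereas the brightest changed by 2.06, so the sign of the ratio at 1 dpn depends on the probe set. The changes of these probe sets at 188 dpn over 94 dpc were 0.47 and 1.1, against -0.52 for HADHA. The dimmest also differed from the brightest in the second step: it was called higher at 28 dpn over 1 dpn (log2 1.55, adjusted p = 0.01), against log2 -0.22 for the brightest.

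**Figure D3:**
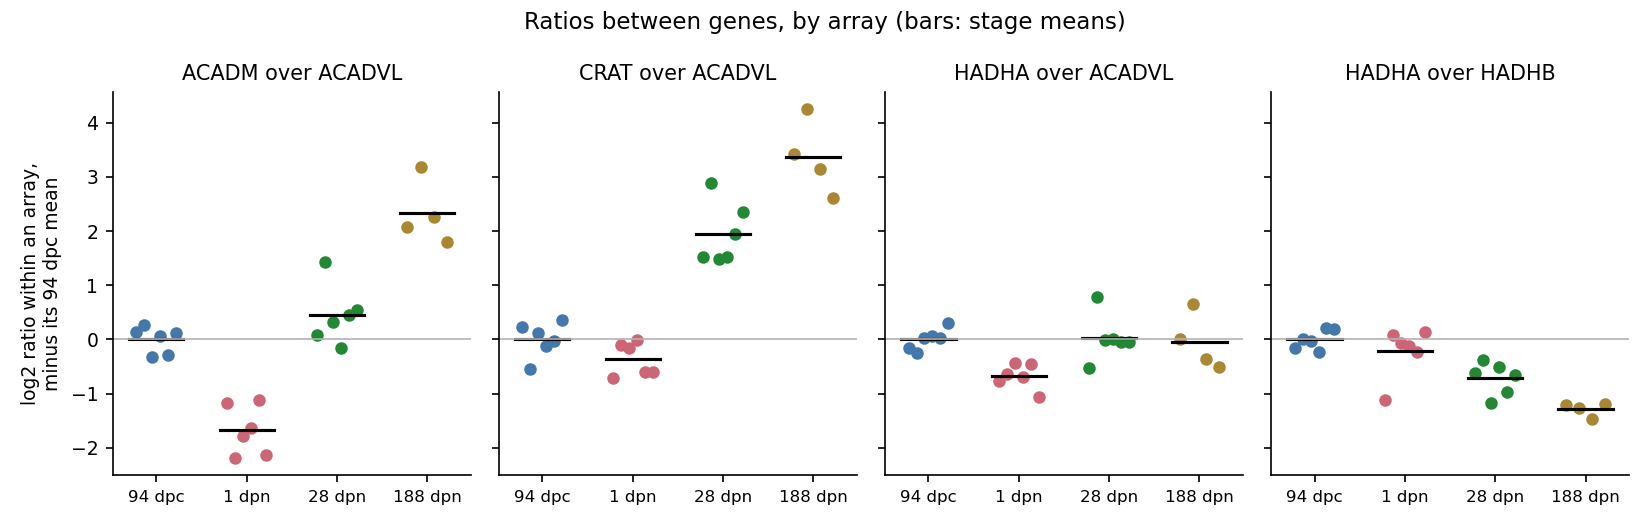
Log2 ratio between the signals of 2 genes within each array, minus the mean of that ratio at 94 dpc (y axis), against age (x axis); points are arrays and bars are stage means. ACADM over ACADVL reaches 1.8 to 3.19 at 188 dpn, HADHA over ACADVL stays between -0.5 and 0.65 there, and HADHA over HADHB lies at -1.46 to -1.19. Each gene is shown by its brightest probe set.

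The genes were also set against CS, read here by its transcript signal. CS is citrate synthase, the entry enzyme of the tricarboxylic acid cycle and a common measure of mitochondrial content. The same CS value is taken from every gene of an array, so the gaps between genes are those without CS. CS averaged 20064.6 at 1 dpn, against 6931 at 94 dpc (log2 change 1.48, SE 0.17, adjusted p = 1e-06), and at 188 dpn it remained 2.36-fold above 94 dpc (log2 change 1.24, adjusted p = 1.9e-05). The dimmer CS probe set changed by log2 1.11 at 1 dpn and 1.44 at 188 dpn, both over 94 dpc. It was called higher at 28 dpn over 1 dpn (log2 0.93, adjusted p = 2.4e-05), where the brighter one was not (0.38). With replicates 1 and 6 alone at 1 dpn, the brighter one changed by log2 0.95 in the first step and 0.92 in the second. Ratios to CS use the brighter one, so their 1 dpn values depend on the probe set and on these arrays. HADHA over CS averaged 0.36 at 1 dpn, -0.76 at 28 dpn and -1.76 at 188 dpn, ECI1 over CS 0.17, -0.16 and -1.43, and ACADVL over CS 1.03, -0.78 and -1.7. CRAT over CS averaged 0.66, 1.17 and 1.66 at the same ages, and ACADM over CS -0.64, -0.34 and 0.63. At 188 dpn every animal was below every 94 dpc animal for HADHA, ECI1 and ACADVL over CS and above them for CRAT over CS, whereas for ACADM over CS the 94 dpc animals reached 0.53 and the 188 dpn animals began at 0.44. Of 12 measured genes of a list of mitochondrial content (CS, the VDAC channels, import receptors, chaperones, prohibitin and carriers), 11 were called higher and 1 lower at 1 dpn over 94 dpc, and 9 higher and 1 lower at 188 dpn over 94 dpc. The lower ones were TOMM70 at 1 dpn (log2 -1.16, adjusted p = 0.016) and PHB2 at 188 dpn (log2 -0.55, adjusted p = 0.0079). The TOMM70 fall was not refitted with replicates 1 and 6 alone at 1 dpn. Its next step was log2 1.26 with those arrays, against 2.68 with all. Its 1 dpn signal was thus higher on them. As the 94 dpc and 28 dpn arrays were the same, the mean log2 signal of replicates 1 and 6 lay above that of 94 dpc. The fall was not seen on those arrays, and no test of this was made. Among the 12 genes the mitochondrial chaperone HSPA9 rose 4.01-fold and the adenine nucleotide carrier SLC25A4 2.61-fold at 1 dpn. The import receptor TOMM70 averaged 529 at 28 dpn, against 101.2 at 1 dpn (log2 change 2.68, adjusted p = 1.5e-05; 1.26 and 0.0029 with replicates 1 and 6 alone at 1 dpn), while HSPA9 and prohibitin PHB2 fell in that step (log2 -1.16 and -1.12). A dimmer HSPA9 probe set was called in the opposite direction there (log2 0.85, adjusted p = 0.037). VDAC2, counted among the 11 by its brightest probe set (log2 0.83), had a dimmer one called lower at 1 dpn over 94 dpc (log2 -0.64, adjusted p = 0.0063), and its other 3 were not called.

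The wider pathway was read in 43 other measured genes of uptake, transport, the mitochondrial cycle, peroxisomal oxidation and ketone bodies, each by its brightest probe set. Of these, 24 were called higher and 1 lower at 1 dpn over 94 dpc, 5 higher and 7 lower at 28 dpn over 1 dpn, none higher and 13 lower at 188 dpn over 28 dpn, and 12 higher and 2 lower at 188 dpn over 94 dpc. Of all named genes, 17.3%, 15.1%, 5.03% and 18.4% were called higher in these comparisons, and 23.8%, 12.9%, 11% and 27% lower. The second-step counts of 5 and 7 of 43 lie near these shares. The same shares stand beside the counts of the smaller lists. In the third step limma gave 2 genes higher at an unadjusted p under 0.05. The 2 genes lower over the whole span were ACOT9 and ACSL5, of which ACSL5 (log2 -0.7) was not called after quantile normalization (-0.39, adjusted p = 0.22), centring (-0.43, adjusted p = 0.16) or averaging its probe sets (-0.61, adjusted p = 0.057). The median log2 changes were 0.84, 0.02, -0.34 and 0.39, against -0.05, 0.04, -0.1 and -0.08 over all named genes. With replicates 1 and 6 alone at 1 dpn, 23, 8, 19 and 19 genes were called. Of the 24 genes called higher at 1 dpn, 11 were called lower at 188 dpn than at 28 dpn, as ACADVL, HADHA and ECI1 were, and 8 of those 11 were not called higher at 188 dpn than at 94 dpc. Of the same 24 genes, 8 were called higher at 188 dpn than at 94 dpc, as ACADM and CRAT were. The count called in the second step moved most with single arrays: it was 7 without replicate 3 or 4 at 1 dpn or without replicate 2 or 6 at 28 dpn, and 6 without replicate 5 at 28 dpn, against 12 with all arrays. The count in the third step was 8 without replicate 2 at 188 dpn, against 13 with all arrays.

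**Figure D4:**
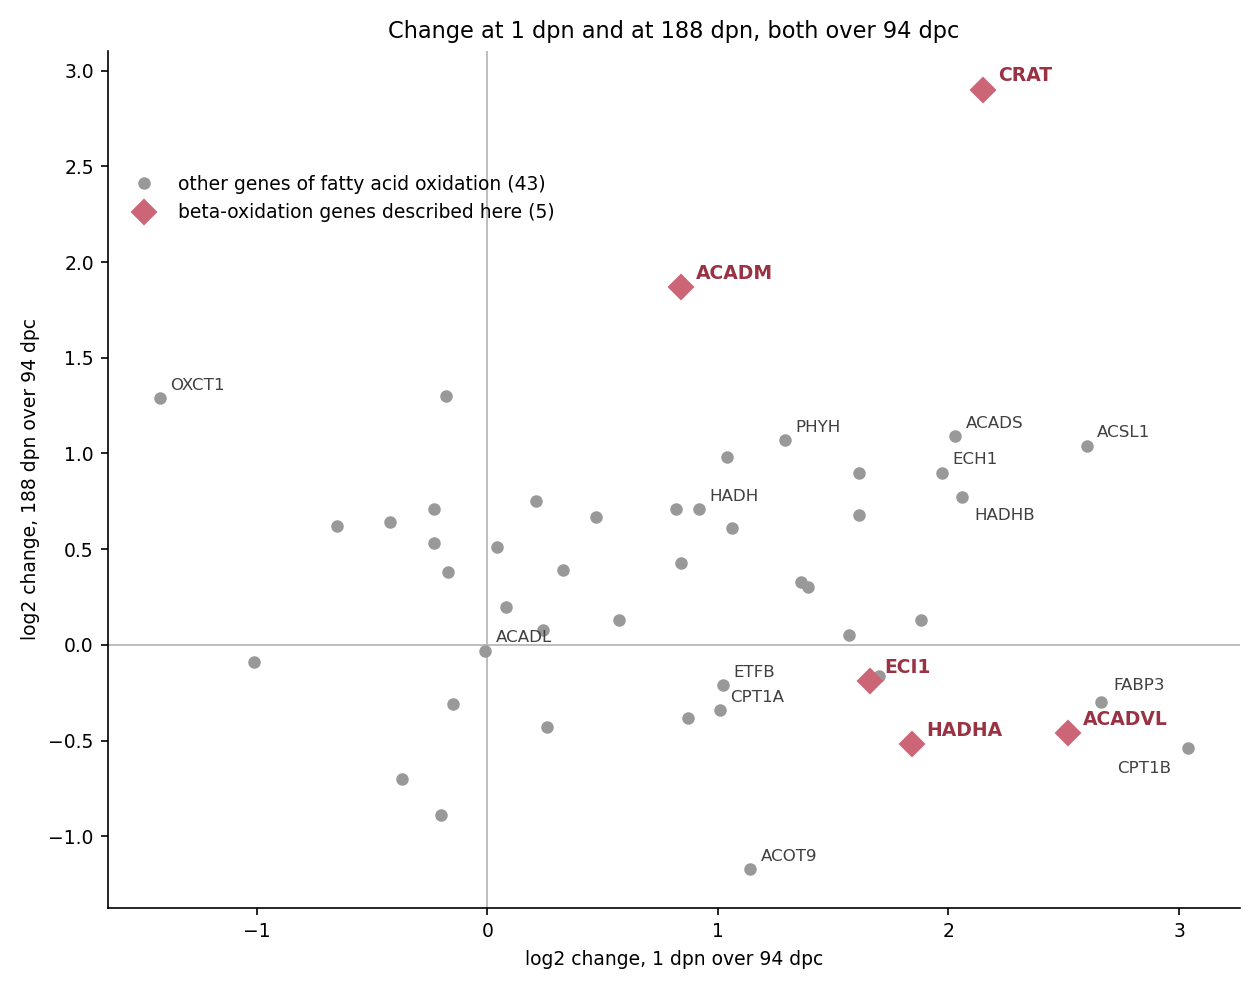
Log2 change at 1 dpn over 94 dpc (x axis) and at 188 dpn over 94 dpc (y axis) of the 5 genes (diamonds) and of 43 other genes of fatty acid oxidation (grey circles); both axes share the 94 dpc arrays. CPT1B (3.04 and -0.54) and FABP3 (2.66 and -0.3) lie beside ACADVL (2.52 and -0.46), and CRAT (2.15 and 2.9) lies above all other points.

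In uptake and activation, 4 of 8 measured genes (FABP3, ACSL1, DBI and SLC27A1) were called higher at 1 dpn and none lower, with 1 lower by limma at an unadjusted p under 0.05. The cytosolic fatty acid carrier FABP3 averaged 47846 at 1 dpn, against 7313 at 94 dpc (log2 change 2.66, SE 0.32, adjusted p = 1.4e-06). ACSL1, which activates long chains to acyl-CoA, rose 6.06-fold (log2 change 2.6, SE 0.27, adjusted p = 3.1e-07), a change of log2 1.71 (adjusted p = 0.00033) with replicates 1 and 6 alone at 1 dpn. FABP3 later fell, at 28 dpn over 1 dpn (log2 change -1.02, adjusted p = 0.023) and at 188 dpn over 28 dpn (log2 change -1.94, adjusted p = 0.001), whereas ACSL1 stayed 2.05-fold above 94 dpc at 188 dpn (adjusted p = 0.0098). The acyl-CoA binding protein DBI rose 2.62-fold at 1 dpn (adjusted p = 0.00084), a change of log2 0.27 (adjusted p = 0.49) with replicates 1 and 6 alone. In the second step FABP3, DBI and ACSL1 were called lower, but with those arrays alone their log2 changes were -0.53, 0.25 and 0.04, and none was called. ACSL5 fell at 188 dpn over 28 dpn (log2 -0.93, adjusted p = 0.011; -0.64 and 0.088 by the mean of its probe sets) and ACSL4 rose over the whole span (log2 0.75, adjusted p = 0.02).

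The carnitine shuttle brings long chains into the mitochondrion, and CPT1B is its muscle-type entry enzyme. CPT1B averaged 7116 at 1 dpn, against 842 at 94 dpc, an 8.25-fold rise (log2 change 3.04, SE 0.25, adjusted p = 2e-08). It fell at 28 dpn over 1 dpn (log2 -1.31, adjusted p = 0.00058) and at 188 dpn over 28 dpn (log2 -2.28, adjusted p = 2.4e-05), so that it averaged 609 at 188 dpn. Relative to CPT1B, ACADVL (brighter probe set) kept within a log2 range of -0.05 to 0.22 of its fetal ratio at 188 dpn. The ratio averaged -0.53 at 1 dpn and -0.65 at 28 dpn. The dimmer ACADVL probe set changed by log2 0.52 at 188 dpn over 94 dpc, against -0.54 for CPT1B. The liver-type isoform CPT1A rose 2.01-fold at 1 dpn and fell at 188 dpn over 28 dpn (log2 -1.37, adjusted p = 0.00016), and the translocase SLC25A20 rose 2.08-fold at 1 dpn and was still 1.53-fold above 94 dpc at 188 dpn (adjusted p = 0.005). In all, these 3 of 5 measured shuttle genes were called higher at 1 dpn and 2 of them, CPT1B and CPT1A, lower at 188 dpn over 28 dpn.

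Among the other acyl-CoA dehydrogenases and the flavoproteins that take their electrons, 5 of 8 were called higher at 1 dpn (ACADS, ETFDH, ETFA, ETFB and ACAD9) and 4 lower at 188 dpn over 28 dpn (ETFB, ACAD9, ACADS and ACAD10), of which ACADS and ACAD10 lost their calls after centring (adjusted p = 0.17 and 0.061). In the step between, limma called none, with 1 higher and 1 lower at an unadjusted p under 0.05. The short-chain enzyme ACADS rose 4.08-fold at 1 dpn (log2 2.03, SE 0.2, adjusted p = 1.3e-07) and at 188 dpn stayed 2.13-fold above 94 dpc (adjusted p = 4e-04). ETFDH, which passes the electrons to ubiquinone, rose 3.05-fold at 1 dpn, and the flavoprotein subunit ETFA 2.05-fold. A dimmer ETFDH probe set changed by log2 0.65 in that comparison and was not called (adjusted p = 0.21). At 188 dpn over 28 dpn ETFB fell by 1.26 on the log2 scale (adjusted p = 0.00014) and ACAD9, known also for complex I assembly, fell by 0.96 (adjusted p = 7e-04). ACAD10, also counted among the pathway genes lower in that step, lay below background on every array of both ages (means 5.09 and 41.9). The long-chain enzyme ACADL averaged 1250.1 at 1 dpn, against 1102 at 94 dpc, and was not called in any comparison. The related dehydrogenases of amino acid breakdown gave 1 called gene of 4 at 1 dpn, ACAD8 (log2 1.26, adjusted p = 0.0033), and 1 at 28 dpn over 1 dpn, GCDH (log2 0.5, adjusted p = 0.046). The GCDH call was kept in 7 of 22 fits that left out 1 array, and was lost after centring (adjusted p = 0.25) and with replicates 1 and 6 alone at 1 dpn (0.23). The brightest probe set of IVD was not called at 1 dpn (log2 -0.32), but 3 dimmer ones were called lower at 1 dpn over 94 dpc (log2 -1.33, -1.02 and -1.34) and higher at 28 dpn over 1 dpn (1.75, 1.05 and 2.03). A dimmer ACADSB probe set was called higher at 28 dpn over 1 dpn (log2 2.12, adjusted p = 0.00017), against log2 0.11 for the brightest. For ACAD8 a dimmer probe set was not called at 1 dpn over 94 dpc (log2 0.72, adjusted p = 0.17). It was called higher at 28 dpn over 1 dpn (log2 1.14, adjusted p = 0.037), against -0.51 for the brightest. At 188 dpn over 94 dpc it was also called higher (log2 1.52, adjusted p = 0.0081), against an uncalled 0.62.

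Of 5 measured genes for the remaining steps of the cycle, 4 (HADHB, ACAA2, HADH and HSD17B10) were called higher at 1 dpn and 1, HADHB, lower at 188 dpn over 28 dpn (log2 -1.06, adjusted p = 0.031). That call was lost after centring (adjusted p = 0.081), in a fit on those ages alone (0.059) and in 7 of 22 fits without 1 array. HADHB rose 4.16-fold at 1 dpn (log2 2.06, SE 0.28, adjusted p = 9.1e-06). The thiolase ACAA2 rose 3.69-fold and HADH, the 3-hydroxyacyl-CoA dehydrogenase for shorter chains, 1.89-fold. With replicates 1 and 6 alone at 1 dpn, ACAA2 changed by log2 0.65 (adjusted p = 0.14) and HADH by 0.32 (adjusted p = 0.32). HADH was called higher over the whole span (log2 0.71, adjusted p = 0.014), but at log2 0.33 after quantile normalization it was not (adjusted p = 0.27).

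The auxiliary enzymes for unsaturated and odd chains and the thioesterases gave 4 of 6 genes higher at 1 dpn and 3 lower at 188 dpn over 28 dpn. ECH1, a dienoyl-CoA isomerase, averaged 3183 at 1 dpn, against 803 at 94 dpc (log2 1.97, SE 0.19, adjusted p = 1.5e-07), and ECI2, the companion isomerase of ECI1, rose 2.97-fold. Both fell at 188 dpn over 28 dpn, by 1.35 for ECH1 (adjusted p = 0.00031) and by 1.06 for ECI2 (adjusted p = 0.016) on the log2 scale, against 1.9 for ECI1, and the ECI2 call was lost after centring (adjusted p = 0.053). DECR1, the dienoyl-CoA reductase, was called higher in the second step instead (log2 0.93, adjusted p = 0.0088), but not with replicates 1 and 6 alone at 1 dpn (0.89, adjusted p = 0.071) or in a fit on those ages alone (adjusted p = 0.05). The thioesterase ACOT9 fell at 28 dpn over 1 dpn and again at 188 dpn over 28 dpn (log2 -1.19 and -1.12), and ended below 94 dpc (log2 -1.17, adjusted p = 0.00035). ACOT13 rose 3.25-fold at 1 dpn (log2 1.7) and fell in the second step (log2 -1.22, adjusted p = 0.0014). With replicates 1 and 6 alone at 1 dpn these changes were log2 0.96 (adjusted p = 0.02) and -0.48 (adjusted p = 0.29). The dimmer ACOT13 probe set changed by log2 0.8 (adjusted p = 0.019) and 0.06 (adjusted p = 0.89) in these steps. By the mean of its probe sets, the second-step change of ACOT13 was log2 -0.58 (adjusted p = 0.067).

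Peroxisomal oxidation gave 4 of 9 genes (PHYH, ACOX2, AMACR and HSD17B4) higher at 1 dpn and 3 of 9 higher at 188 dpn over 94 dpc. PHYH, the phytanoyl-CoA hydroxylase, averaged 6945 at 1 dpn, against 2801 at 94 dpc (log2 1.29, adjusted p = 2.9e-05), rose further at 28 dpn (log2 0.76, adjusted p = 0.0079; 0.75 and 0.083 with replicates 1 and 6 alone at 1 dpn) and fell at 188 dpn (log2 -0.98, adjusted p = 0.0053). ACOX2 was called higher at 1 dpn (log2 1.61, adjusted p = 0.0011), but not with replicates 1 and 6 alone (0.43, adjusted p = 0.45). OXCT1, which lets muscle burn ketone bodies, was the 1 pathway gene called lower at 1 dpn: it averaged 157 at 1 dpn, against 386 at 94 dpc (log2 -1.42, SE 0.34, adjusted p = 0.0023). A dimmer OXCT1 probe set changed by log2 -0.5 in that comparison and was not called (adjusted p = 0.33). At 28 dpn the brighter one averaged 797, against 157 at 1 dpn (log2 2.47, adjusted p = 1.8e-05), and at 188 dpn it stayed above 94 dpc (log2 1.29, adjusted p = 0.0095).

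Fat supply and regulators were read apart from the 43 genes. Of 6 lipolysis and supply genes 5 (PNPLA2, LPL, LIPE, PLIN2 and ABHD5) were called higher at 1 dpn, led by the triglyceride lipase PNPLA2, which averaged 12817 at 1 dpn, against 2128 at 94 dpc (log2 2.48, SE 0.26, adjusted p = 3e-07). With replicates 1 and 6 alone at 1 dpn this change was log2 1.93 (adjusted p = 0.00047). For PNPLA2 a dimmer probe set changed by log2 0.74 in that comparison and was not called (adjusted p = 0.13). LPL, the lipase that frees fatty acids from lipoproteins, rose 2.31-fold (adjusted p = 0.0068), and LPL and LIPE are also in the adipocyte list. ACACA, which makes the CPT1 inhibitor malonyl-CoA, averaged 83.9 at 1 dpn, against 45.4 at 94 dpc, near background at both ages. Among 11 measured regulators 3 were called higher (LPIN1, PPARD and SIRT3) and 2 lower (PPARG and TFAM) at 1 dpn. The brightest TFAM probe set changed by log2 -0.51 there, but its dimmer ones changed by 0.02, 0.35 and 0.05. For PPARD the brightest changed by 0.67 and the dimmer ones by -0.21 and 0.88. None of these dimmer probe sets was called. The adipogenic receptor PPARG averaged 42.1 at 1 dpn, below background, against 123.2 at 94 dpc, a log2 change of -1.73 that was -0.12 (adjusted p = 0.91) with replicates 1 and 6 alone. The mitochondrial deacylase SIRT3 also lost its call there (log2 0.5, adjusted p = 0.35, against 0.93 with all arrays), as did the hormone-sensitive lipase LIPE (1.5, adjusted p = 0.27, against 1.62 with all arrays). LPIN1, a phosphatidate phosphatase that also acts as a coactivator, rose 4.77-fold (log2 2.25, SE 0.35, adjusted p = 3.7e-05) and stayed 5.28-fold above 94 dpc at 188 dpn. The coactivator PPARGC1A averaged 339 at 1 dpn, against 492.5 at 94 dpc, and was not called (log2 -0.6). With replicates 1 and 6 alone at 1 dpn it was called lower (log2 -1.08, adjusted p = 0.039). It was called higher at 28 dpn over 1 dpn (log2 0.86, adjusted p = 0.023). PRKAA2, a catalytic subunit of AMP-activated kinase, rose at 28 dpn over 1 dpn (log2 0.95, adjusted p = 0.019) and was 4.51-fold above 94 dpc at 188 dpn. Both second-step calls were lost after centring (adjusted p = 0.068 for PPARGC1A and 0.052 for PRKAA2) and in a fit on those ages alone (0.057 and 0.055).

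The genes whose log2 signal ran most like the mean course of the 5 genes over the 22 arrays were HADHB (Pearson's r 0.959), PNPLA2 (0.952), the malate dehydrogenase MDH2 (0.951), LOC100516480 (0.943), SLC25A4 (0.941) and the isocitrate dehydrogenase IDH2 (0.938), of 6760 named genes compared. CPT1B was nearest to both ACADVL (0.968) and HADHA (0.963), followed by ACOT6 (0.946) and KLHDC3 (0.955). The genes nearest to ECI1 were DLST (0.928) and SLC25A11 (0.921), a subunit of 2-oxoglutarate dehydrogenase and the oxoglutarate carrier. ACADM ran most like the sarcomere genes MYOT (0.933) and NEB (0.927), and CRAT most like EIF1 (0.977), a translation initiation factor, and PYGM (0.972), the muscle glycogen phosphorylase.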

How the data were processed

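Total RNA (0.5 µg per labelling, per the labels' protocols) was hybridised to an Affymetrix porcine array, 1 per animal. The authors deposited linear signal intensity per probe set, scaled, as the values show, to a trimmed mean of 500 on every array. GCOS 1.1.1 is the software that the submitters' processing notes name. Intensity was used as log2(signal + 16), so folds of dim genes are understated. Of the probe sets, 10069 carried 1 symbol, 9961 of them updated through the RefSeq table, and 198 with several were not named. No genome was used. Limma 3.58.1 (R 4.3.3, statmod 1.5.0) fitted 1 mean per stage over 23999 probe sets, with 4 comparisons and Benjamini-Hochberg adjustment. The brightest probe set, by mean log2 signal, stood for a gene. Background was the 95th percentile of 23 control probe sets with absent targets. The fit was tested on simulated data. The number of arrays, 4 to 6 per stage, limits precision, and no batch is labelled.

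The 5 genes and all lists were chosen with earlier results of these data known. From each list the text names up to 3 called genes per comparison by size of change, and CPT1B, HADHB, ACADL, ACADS, PPARGC1A and CS in any case. It also names the genes most alike in course and, chosen after their values were seen, the members of some small counts. Alternatives were quantile normalization, median centring, array weights, trended and robust variances, a pseudocount of 1, averaging a gene's probe sets, a fit on the compared ages alone, leaving out probe sets dimmer than the median, the 1 dpn arrays with a GAPDH 3'/5' ratio under 3, that ratio as a covariate, and each array left out. Leaving out the arrays with the highest hepatocyte sum (94 dpc replicate 1) and pancreas sum (1 dpn replicate 3) was added after seeing the data.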

Additional observations from a re-analysis of the deposited data

Results flagged for a closer look

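A single array stood apart from the others of its age, by Dixon's test at the 95% level, in 14 of 232 groups tested (58 probe sets at 4 ages), which is 6.03%. Chance alone would do so in about 1 of 20. Among the 5 genes, the dimmer ACADVL probe set had 4231 in replicate 1 at 1 dpn, against 1151 to 1653 in the others, and HADHA had 6743 in replicate 6 at 1 dpn, against 11153 to 14981. At 1 dpn, ETFDH had 11679 in replicate 1 (3858 to 5367 in the others), PPARGC1A 118.8 in replicate 1 (324.5 to 503), OXCT1 19.6 in replicate 2 (120.8 to 264), PNPLA2 4654 in replicate 6 (12429.8 to 17728) and PRKAA2 1369 in replicate 6 (3229 to 3532). At 28 dpn, PHYH had 17141 and LPIN1 3812 in replicate 3 (9114 to 11522 and 1207 to 1724 in the others), and OXCT1 had 630.3 in replicate 4 (809 to 849). At 94 dpc, CS had 5687 and PLIN2 350.2 in replicate 6 (7121 to 7255 and 236 to 262), and PCCA had 396 in replicate 1 (474 to 511). At 188 dpn, MGLL had 889 in replicate 2 (1344 to 1413). Replicates 1 and 6 at 1 dpn, where 6 of these 14 arrays lie, are the arrays of that age with a GAPDH 3'/5' ratio under 3, and the part of RNA integrity in them was not tested.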

How the results depend on the processing

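Of 788 values of the 5 genes' changes under alternatives, 750 kept direction and side of the threshold, 22 lost a call, 3 gained one and 13 changed sign. Of 3263 such values of named genes in the other lists, 239 lost a call, 18 gained one and 18 changed sign. Of 291 counts, 278 stayed within 1.5 times. The 4 probe sets called at 28 dpn over 1 dpn became 2 with only those stages, with replicates 1 and 6 alone at 1 dpn, with the GAPDH ratio as a covariate, and without the arrays with most hepatocyte and pancreas transcripts. The 12 pathway genes of that step became 5 with only those stages, 6 without those arrays and 6 to 14 with 1 array left out. The 13 at 188 dpn over 28 dpn became 8 to 16 with 1 array left out, and the 14 at 188 dpn over 94 dpc became 22 with array weights. The TOMM70 change at 1 dpn over 94 dpc was called but not refitted, and by its next step its sign turns with replicates 1 and 6 alone. Among the values refitted, sign changes were in values that were not called, except DBI and ACSL1. For 28 dpn over 1 dpn these were ECI1 (0.06; -0.14 centred, -0.15 with array weights, -0.11 to 0.18 with 1 array left out), the dimmer ACADVL probe set (-0.06; 0.08 with array weights, -0.19 to 0.21 with 1 array left out), HADHB (0.53 by the mean of its probe sets), and DBI (0.25) and ACSL1 (0.04) with replicates 1 and 6 alone. CRAT at 188 dpn over 28 dpn was 0.07 centred. At 188 dpn over 94 dpc ACADVL was 0.03 by the mean of its probe sets, ECI1 0.08 centred, and ACADL 0.13 by quantiles, 0.24 centred and -0.12 to 0.08 with 1 array left out. ACADL at 1 dpn over 94 dpc was 0.13 by quantiles, 0.25 centred, 0.34 with replicates 1 and 6 alone, 0.26 with the covariate, 0.07 without the hepatocyte and pancreas arrays and -0.28 to 0.13 with 1 array left out. The ACADM call at 28 dpn over 1 dpn was kept in 13 of 22 fits that left out 1 array (adjusted p up to 0.091), and HADHA's in 21 (up to 0.058). Both calls were lost in a fit on those ages alone (0.11 for ACADM and 0.1 for HADHA) and with the covariate (0.052 and 0.28). Without the hepatocyte and pancreas arrays they were lost too (0.067 and 0.057). Causes of these changes were not tested. No paired analysis was possible because the labels give no shared replicate numbers. Signals near or below the background of 69.7 (ACACA, PPARG, ACAD10) limit what can be said of those genes.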
